A study of Mus musculus with 3 samples.

Results

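Nuclear and imprinted long noncoding RNAs were followed in cultured mouse inhibitory neurons after membrane depolarization. The 6 genes were chosen by name and are 6 of the 25562 gene models counted: Snhg11 (listed as A930034L06Rik), Miat (A230057G18Rik), Tug1, Meg3 (Gtl2), Pvt1 and Peg13. The cultures were C57Bl/6 neurons derived from the medial ganglionic eminence (MGE) of E14 embryos. They were silenced overnight with TTX, which blocks sodium channels, together with AP-5, which blocks NMDA receptors, and on day 10 in culture were kept for 0, 1 or 6 h in 55 mM KCl, which depolarizes the membrane. Total RNA depleted of ribosomal RNA was sequenced with strand information, from 1 library per time, so no difference between times could be tested. The silencing drugs were common to all 3 libraries, and the labels give no untreated culture and do not say how many embryos or dishes were pooled.

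Long noncoding RNAs carry no long open reading frame, and many of them stay in the nucleus. Imprinted genes are expressed from the allele inherited from 1 parent, lie in clusters, and often include a long noncoding RNA. Meg3 is the maternally expressed RNA of the Dlk1-Dio3 cluster, and Peg13 is a paternally expressed RNA that lies inside Trappc9, in a cluster with the potassium channel gene Kcnk9. Miat (also called Gomafu) forms nuclear foci in neurons, Tug1 was first described in mouse retina, Snhg11 is a host gene of small nucleolar RNAs, and Pvt1 is the neighbour of the Myc proto-oncogene.

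The sequence of the main Meg3 promoter is shown because it holds a full cyclic AMP response element (CRE), the site bound by the activity-regulated factor CREB. The window is chr12:109540746-109541045 on the plus strand of GRCm38.p6, from RefSeq, and runs from 250 bases before to 50 bases after the start site, with the CRE in capitals. Meg3 also hosts 3 mature miRNAs, which are shown with their seed (bases 2 to 8) in capitals. The 3 seeds differ from each other.
Meg3 promoter 1: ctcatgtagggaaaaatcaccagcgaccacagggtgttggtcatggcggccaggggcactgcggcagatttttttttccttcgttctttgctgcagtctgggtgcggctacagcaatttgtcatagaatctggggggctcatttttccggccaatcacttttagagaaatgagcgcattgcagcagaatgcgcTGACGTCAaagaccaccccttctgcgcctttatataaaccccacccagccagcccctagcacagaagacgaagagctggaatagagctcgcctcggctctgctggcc
mmu-miR-1906: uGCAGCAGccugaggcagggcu
mmu-miR-770-5p: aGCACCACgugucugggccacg
mmu-miR-770-3p: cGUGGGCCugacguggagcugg

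The CRE, written TGACGTCA and identical on both strands, began at position -57 relative to the start site of Meg3. It was present in 1.79% of 32851 promoter windows of the same length. The shorter form TGACG or CGTCA, found in 20.8% of windows, matched in Meg3 at the same place. The second Meg3 window and those of Snhg11, Miat and Tug1 held neither form, no AP-1 match (TGACTCA or TGAGTCA, 5.2% of windows) and no EGR match (GCGGGGGCG or CGCCCCCGC, 2.91% of windows). These matches describe letters in a window and not binding.

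The libraries held 8549377 to 8996897 uniquely mapped reads, of which 24.3% to 28.9% were sense exonic and 20.9% to 24.4% sense intronic. The 6 RNAs together had 4843, 5102 and 5412 exonic reads at 0, 1 and 6 h. The depolarization marker Fos had 21, 2901 and 877 exonic reads at 0, 1 and 6 h. All 8 markers of MGE-derived interneurons had at least 20 reads in every library, with a summed level of 3651, 3532 and 5217 RPM (reads per 1000000 scaled reads of the same class) at 0, 1 and 6 h. Markers of excitatory neurons summed to 6 to 11 reads and those of microglia to 0 or 1 read, while all 6 markers of astrocytes and radial glia were detected (2044 to 2293 RPM), 5 of 6 of the oligodendrocyte lineage (140 to 172) and 3 of 4 of dividing cells (105 to 114). The levels of the 6 RNAs are therefore those of a mixed culture, in which fewer cells of a type and less RNA per cell cannot be told apart.

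The exonic ratio of each of the 6 RNAs to the 0 h library lay within 2-fold at both times, and at 6 h against 0 h Peg13 differed most. Counting intervals reached past 2-fold for Pvt1 at 1 h (0.45 to 1.41) and 6 h (0.81 to 2.23). For Miat they did so at 6 h (0.48 to 0.93). A gene was counted as past 2-fold when the ratio of its scaled reads was at least 2 or at most 0.5, its 95% counting interval did not include 1 and at least 20 reads were counted in 1 library of the pair. No RNA of the 6 met this at 1 h against 0 h, at 6 h against 0 h or at 6 h against 1 h, where 3%, 10.3% and 8.8% of all genes compared did. All 6 had enough exonic reads to be compared. Their median log2 ratios were -0.20, -0.10 and 0.06 in these 3 comparisons, and those of all genes 0.01, 0.00 and 0.01. In the intronic reads, 0, 0 and 1 of the 5 RNAs with introns passed the rule in these 3 comparisons, where 13.7%, 10.9% and 12.9% of all genes did. The 1 was Pvt1 at 6 h against 1 h, where 7.07% of genes were higher. The intervals cover counting error only, since each time had 1 library. They treat reads as independent, but repeated reads were kept and no molecular identifiers were used. The libraries held 2.33 to 2.60 mapped reads per distinct position, so the intervals can be too narrow.

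**Figure D1:**
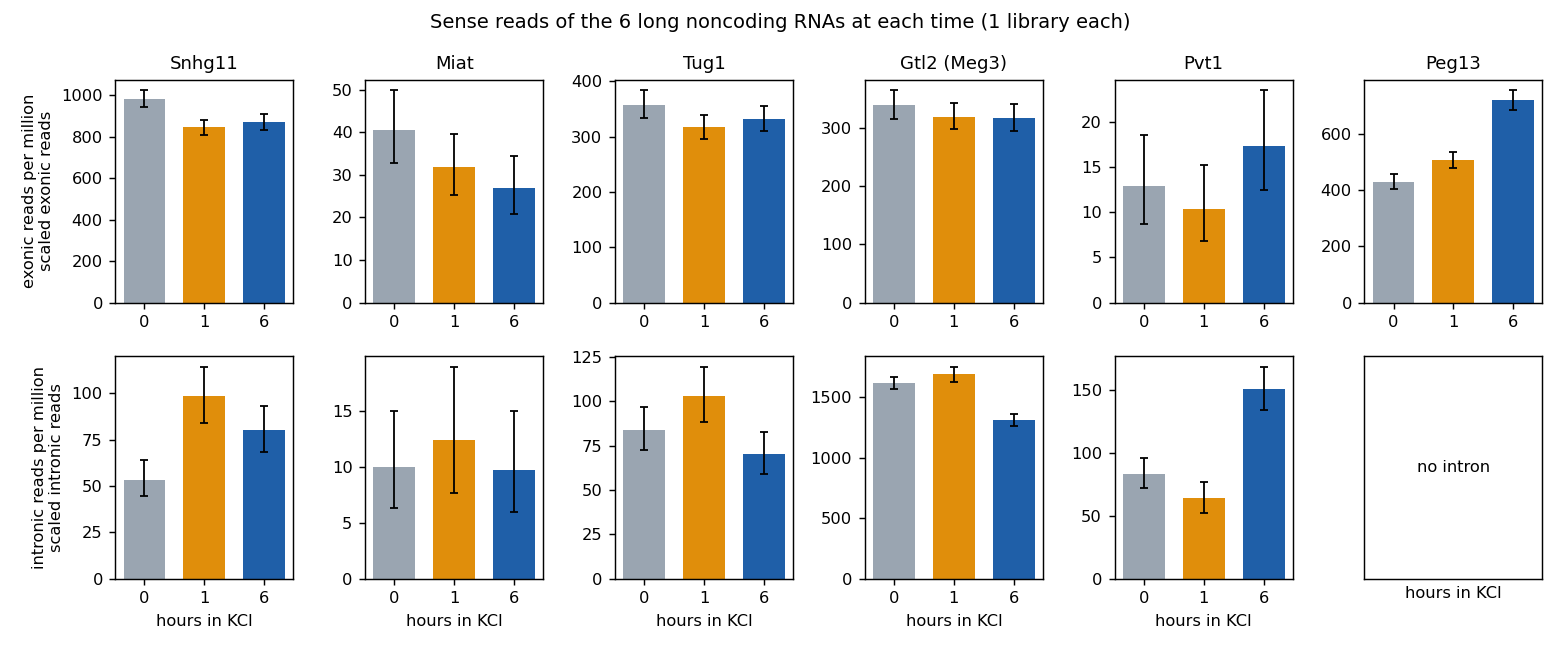
Sense exonic reads (top) and intronic reads (bottom) of each RNA, in RPM of that class, at 0, 1 and 6 h in KCl; bars are 1 library each and lines are 95% Poisson intervals of the reads. Peg13 stands at 430, 508 and 720 exonic RPM, while exonic Meg3 stays between 317 and 339, and intronic Pvt1 is at 83.1, 63.9 and 151.

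Peg13, the paternally expressed RNA, had 963, 1276 and 1707 exonic reads at 0, 1 and 6 h. Its scaled level was higher at each later time, and the intervals of all 3 ratios excluded 1. The ratio was 1.18 at 1 h over 0 h (1.09 to 1.29), 1.68 at 6 h over 0 h (1.55 to 1.82) and 1.42 at 6 h over 1 h (1.32 to 1.53). The ratio at 6 h over 0 h was larger than that of 91.3% of genes compared, and by a limit of 1.5-fold Peg13 counted as higher, as did 11.6% of genes. Scaled to uniquely mapped reads, the same ratio was 1.86. The summed level of the interneuron markers was also higher at 6 h, as given above, and its part in this difference was not tested. The markers did not move together, with exonic ratios at 6 h over 0 h of 1.82 for Gad1 and 1.52 for Sst, but 0.56 for Lhx6 and 0.70 for Dlx2, and none of the 8 passed 2-fold in exonic reads.

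The single Peg13 exon (chromosome 15, 72636030 to 72640754, minus strand, mm9) lies inside intron 18 of the 23 introns of Trappc9, listed as 1810044A24Rik, on the same strand. Trappc9 encodes a subunit of the TRAPP trafficking complex. Peg13 reads are therefore also counted as intronic reads of Trappc9, and made up 61.0%, 74.3% and 83.6% of its 1579, 1717 and 2042 intronic reads at 0, 1 and 6 h. Without Peg13, the Trappc9 introns held 616, 441 and 335 reads at 0, 1 and 6 h. Their ratio at 6 h over 0 h on the intronic scale was 0.61 (0.53 to 0.70), whereas the count with Peg13 gave 1.45 (1.36 to 1.55). The direction of intronic Trappc9 at 6 h thus turned on whether Peg13 reads were left in.

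Peg13 and the remaining Trappc9 intronic reads diverged without any scaling. The odds of a Peg13 read against another Trappc9 intronic read were 1.85 times as high at 1 h as at 0 h (1.59 to 2.15) and 3.26 times as high at 6 h as at 0 h (2.78 to 3.82). In the rest of intron 18, reads numbered 244, 234 and 151 at 0, 1 and 6 h, and in the other Trappc9 introns 372, 207 and 184. These parts went opposite ways at 1 h over 0 h on the intronic scale. The rest of intron 18 was at 1.31 (1.09 to 1.57) and the other introns at 0.76 (0.64 to 0.90), with Peg13 at 1.80 (1.66 to 1.96). With the exonic factors, the rest of intron 18 was at 0.86 and the other introns at 0.50. The direction of the rest of intron 18 at 1 h thus depended on the scale. At 6 h over 0 h both parts were lower on the intronic scale, at 0.69 and 0.55. Trappc9 exonic reads were 265, 267 and 214, with a ratio of 0.76 at 6 h over 0 h (0.63 to 0.92). Kcnk9, which encodes a potassium leak channel and is the nearest gene model outside Trappc9 on the low-coordinate side, 259321 bp from Peg13, had 64, 96 and 246 exonic reads at 0, 1 and 6 h. It was 3.63-fold higher at 6 h than at 0 h (2.75 to 4.86), past the size rule, as were 4.92% of genes. Its intronic reads, 17, 42 and 63, were likewise 4.16-fold higher at 6 h than at 0 h (2.40 to 7.58). Peg13 and Kcnk9 were thus both higher at 6 h than at 0 h. Trappc9 was lower in its exons on the exonic scale, and in its introns without Peg13 on the intronic scale.

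**Figure D2:**
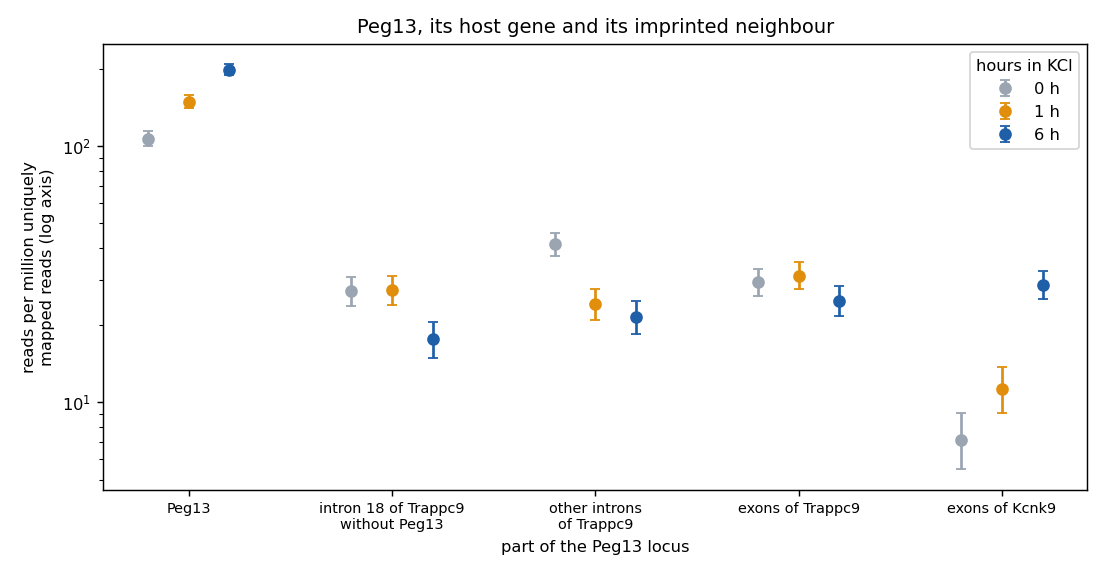
Reads per 1000000 uniquely mapped reads (log axis) of Peg13, of intron 18 of Trappc9 without Peg13, of its other introns, of its exons and of the exons of Kcnk9 at 0, 1 and 6 h in KCl; points are 1 library each and bars are 95% Poisson intervals. Peg13 (963, 1276 and 1707 reads) and Kcnk9 (64, 96 and 246 reads) are highest at 6 h, and both intronic parts of Trappc9 without Peg13 (244, 234 and 151, and 372, 207 and 184 reads) are lowest there.

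Meg3, the maternally expressed RNA of the Dlk1-Dio3 cluster, kept a nearly constant exonic level. It had 760, 802 and 751 exonic reads at 0, 1 and 6 h. The ratio was 0.94 at 1 h over 0 h (0.85 to 1.04), 0.93 at 6 h over 0 h (0.84 to 1.03) and 0.99 at 6 h over 1 h (0.90 to 1.10). All 3 intervals included 1 and none reached a 1.5-fold difference in either direction.

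Most Meg3 reads lay in its introns as the deposited gene model draws them. There were 3723, 2859 and 2693 intronic reads at 0, 1 and 6 h, or 4.90, 3.56 and 3.59 per exonic read. The model (chromosome 12, 110781694 to 110809935, plus strand, mm9) has 7 exons with 2104 bp in all, whereas the 11 Meg3 transcripts of GENCODE M21, on GRCm38, cover 18089 bp of exon. Reads called intronic here can thus belong to spliced RNA of longer models. The mappable part of the deposited exons was 0.438, the lowest of the 6, so the exonic count of Meg3 is an undercount.

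Intronic Meg3 reads were fewer relative to exonic reads after depolarization. The exonic-to-intronic odds were 1.37 times as high at 1 h as at 0 h (1.23 to 1.54) and 1.37 times as high at 6 h as at 0 h (1.22 to 1.53), and at 6 h against 1 h the factor was 0.99 (0.89 to 1.11). The median of the same factor over all genes with enough reads was 1.44 over 6042 genes at 1 h and 1.13 over 6249 genes at 6 h, so Meg3 was below the median gene at 1 h and above it at 6 h. On the intronic scale, the ratio of Meg3 intronic reads was 1.05 at 1 h over 0 h (1.00 to 1.10) and 0.81 at 6 h over 0 h (0.77 to 0.85). Per uniquely mapped read the ratio at 1 h over 0 h was 0.81, so the direction at 1 h depended on the scale. Over the whole gene, with exonic, intronic and boundary reads together, Meg3 had 4537, 3695 and 3493 reads at 0, 1 and 6 h.

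The reads were spread unevenly along Meg3. Intron 6 held 2596, 1848 and 1783 reads at 0, 1 and 6 h, which was 69.7%, 64.6% and 66.2% of the intronic reads. Per kb, intron 1 was the densest long intron at 410 reads per kb at 0 h, against 199 in intron 6, 122 in intron 2 and 10.6 in intron 5. Intron 1 had 692, 665 and 617 reads at 0, 1 and 6 h, a smaller difference between times than in intron 6. The odds of an intron 6 read against an intron 1 read were 0.74 times those at 0 h after 1 h (0.65 to 0.84) and 0.77 times after 6 h (0.68 to 0.87). For intron 2 against intron 1 the factors were 0.72 at 1 h and 0.72 at 6 h, both with intervals below 1. The mmu-miR-770 locus lay over an exon of 1 of the 11 GENCODE transcripts and mmu-miR-1906 over exons of 5 of them.

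Splicing of Meg3 was seen mainly between exons 5 and 6, with 68, 69 and 47 junction reads at 0, 1 and 6 h. Reads joining exon 2 to exon 4, which skip exon 3, numbered 14, 7 and 12, against 0, 3 and 0 joining exon 2 to exon 3 and 8, 4 and 4 joining exon 3 to exon 4. Exon 4 differed from the other exons at 6 h, with 27, 32 and 57 reads at 0, 1 and 6 h. Its ratio at 6 h over 0 h was 2.0 (1.24 to 3.28), but the junctions into exon 4 from exons 2 and 3 together did not show more reads at 6 h.

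**Figure D3:**
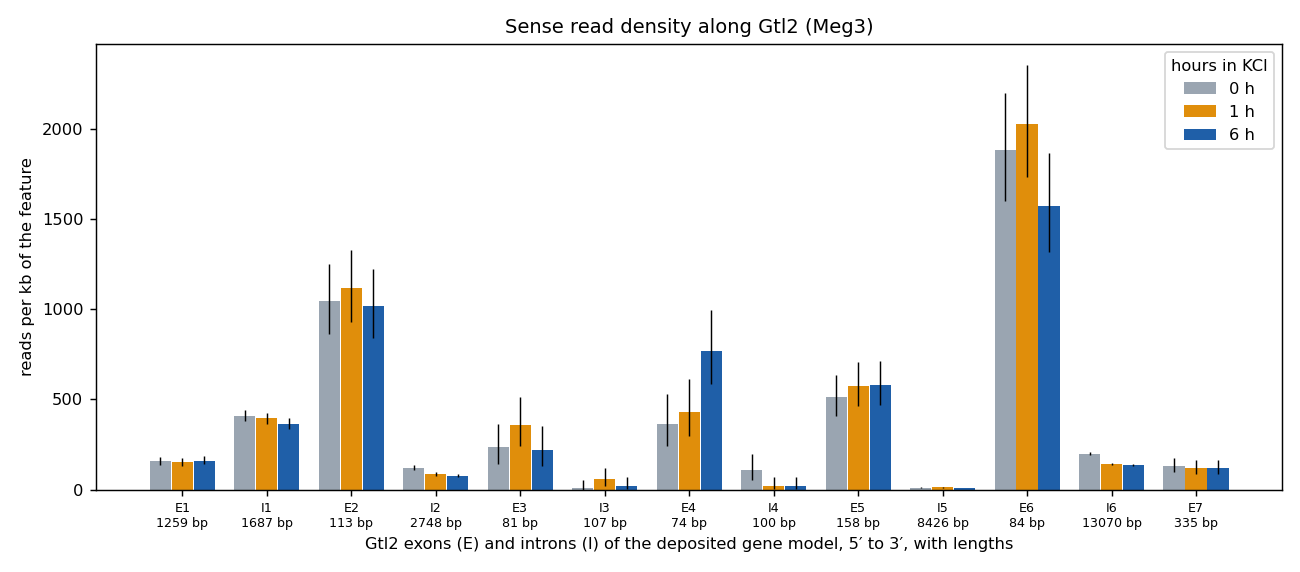
Sense reads per kb in each exon (E) and intron (I) of the deposited Meg3 model, listed as Gtl2, in transcript order at 0, 1 and 6 h in KCl; bars are 1 library each and lines are 95% Poisson intervals. Intron 1, at 410 reads per kb at 0 h, and intron 6, at 199, are far above intron 5, at 10.6.

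Dlk1, Rtl1, Mirg and Dio3, other genes of the Dlk1-Dio3 cluster, were scarcely detected in exons. Dlk1, which encodes a Notch-related membrane protein, had 2, 9 and 5 exonic reads at 0, 1 and 6 h. Rtl1, derived from a retrotransposon, had 3, 0 and 0. Mirg, a microRNA-bearing noncoding RNA downstream of Meg3, had 6, 17 and 11 exonic reads but 444, 479 and 484 intronic reads. On the intronic scale the Mirg ratio was 1.47 at 1 h over 0 h (1.29 to 1.67) and 1.22 at 6 h over 0 h (1.07 to 1.39), and the difference from Meg3 was not tested. Dio3, a thyroid hormone deiodinase gene, had 14, 12 and 4 exonic reads.

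Pvt1 was the scarcest of the 6 in its exons and the most changeable in its introns. It had 29, 26 and 41 exonic reads at 0, 1 and 6 h, and all 3 exonic intervals included 1, the ratio at 6 h over 1 h being 1.67 (1.00 to 2.85). Its introns, 209915 bp in all on chromosome 15, had 191, 108 and 309 reads at 0, 1 and 6 h. The intronic ratio was 0.77 at 1 h over 0 h (0.60 to 0.98), 1.81 at 6 h over 0 h (1.51 to 2.18) and 2.36 at 6 h over 1 h (1.89 to 2.96). The last was larger than that of 95.8% of genes compared. Among the 1333 genes compared with 100 to 400 kb of intron, a range chosen after the values were seen, the median ratio at 6 h over 1 h was 1.14 and 9.68% were higher by the size rule. At 1 h over 0 h the median of 1389 such genes was 0.86, and 33.9% had a smaller ratio than Pvt1.

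The higher value at 6 h than at 1 h ran along most of the Pvt1 gene. Intron 1 (68946 bp) had 47, 32 and 80 reads at 0, 1 and 6 h, intron 2 had 50, 22 and 60, and intron 5 (66625 bp) had 62, 35 and 115. The ratio at 6 h over 1 h was 2.06 in intron 1 (1.35 to 3.21), 2.25 in intron 2 (1.36 to 3.85) and 2.71 in intron 5 (1.84 to 4.07). At 1 h over 0 h the scaled ratios of introns 1, 2 and 5 were 0.93 (0.57 to 1.48), 0.60 (0.35 to 1.01) and 0.77 (0.49 to 1.18). Each of these intervals included 1, so no single intron separated 1 h from 0 h. Introns 3 and 4 also had the fewest unscaled reads at 1 h and the most at 6 h, with 12, 2 and 17 and 8, 3 and 24. Introns 7 and 8 near the 3′ end had 4, 4 and 3 and 8, 10 and 9. Spliced Pvt1 reads numbered 1, 0 and 2. The exonic-to-intronic odds at 6 h were 0.55 times those at 1 h (0.31 to 0.99), an interval that holds the median of all genes, 0.80 over 5939 genes.

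**Figure D4:**
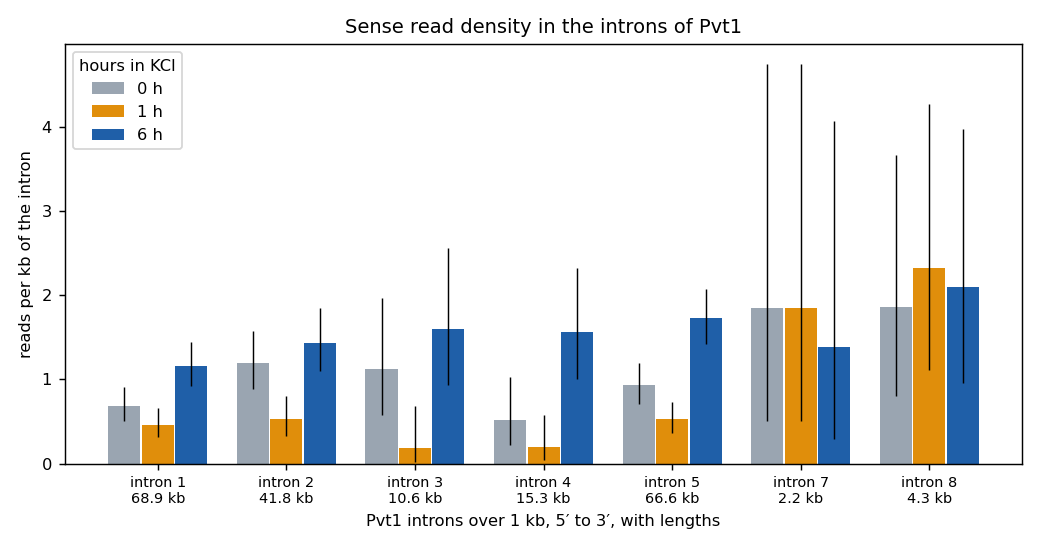
Sense reads per kb in the Pvt1 introns longer than 1 kb, in transcript order, at 0, 1 and 6 h in KCl; bars are 1 library each and lines are 95% Poisson intervals. The reads are not scaled between libraries. Introns 1 to 5 are lowest at 1 h and highest at 6 h, with 32 and 80 reads at 1 and 6 h in intron 1. Introns 7 and 8 hold at most 10 reads in any library.

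Myc, a transcription factor gene and the nearest gene model on the low-coordinate side of Pvt1, 47626 bp away, had 29, 43 and 56 exonic reads at 0, 1 and 6 h. Its ratio was 1.32 at 1 h over 0 h (0.81 to 2.20) and 1.83 at 6 h over 0 h (1.15 to 2.97). Myc was thus higher at 6 h than at 0 h, with a ratio within 2-fold, like intronic Pvt1. At 1 h over 0 h its ratio was above 1, while exonic Pvt1 was at 0.80 (0.45 to 1.41). These 1 h intervals overlapped, and the difference was not tested.

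Miat, the RNA of nuclear foci, was among the scarcer of the 6. It had 91, 80 and 64 exonic reads at 0, 1 and 6 h. The ratio was 0.78 at 1 h over 0 h (0.57 to 1.07) and 0.67 at 6 h over 0 h (0.48 to 0.93), which by a limit of 1.5-fold counted as lower, as did 13.2% of genes. Per uniquely mapped read the value at 6 h over 0 h was 0.74 (0.53 to 1.03), no longer past that limit. Its intronic reads, 23, 21 and 20, and the reads within 500 bp downstream of the model, 28, 23 and 26, did not separate the times. The deposited Miat model has 958 bp of exon, against 9293 bp covered by the GENCODE transcripts, so these counts come from a small part of the RNA.

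Tug1 was nearly constant in its exons, with 802, 796 and 787 reads at 0, 1 and 6 h. Its ratio was 0.89 at 1 h over 0 h (0.80 to 0.98) and 0.93 at 6 h over 0 h (0.84 to 1.03), but per uniquely mapped read both exceeded 1, at 1.04 and 1.03. Intron 1 held 179, 163 and 140 of the 193, 174 and 144 intronic reads, at a density of 147 reads per kb at 0 h, above the 85.1 of exon 3. The deposited Tug1 model has 6675 bp of exon, against 9734 bp covered by the 8 GENCODE transcripts. Reads called intronic here can thus belong to exons of longer models, which limits the odds that follow. The exonic-to-intronic odds of Tug1 at 6 h were 1.32 times those at 0 h (1.03 to 1.68), an interval that holds the median of all genes, 1.13. Exon 3 had 192, 165 and 149 reads while exon 4 had 430, 449 and 452.

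Snhg11, the most abundant of the 6 by number of exonic reads, had 2198, 2122 and 2062 of them at 0, 1 and 6 h. Its ratio was 0.86 at 1 h over 0 h (0.81 to 0.91) and 0.89 at 6 h over 0 h (0.84 to 0.94), but per uniquely mapped read the ratios were 1.02 and 0.98. The last exon, exon 5, carried the lower value at 1 h, with 1643, 1450 and 1534 reads and a ratio of 0.79 at 1 h over 0 h (0.73 to 0.85). The first exon had 154, 196 and 161 reads and exon 4 had 53, 87 and 55, so the exons did not move together.

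Intronic Snhg11 reads were more numerous at both later times, with 123, 166 and 164 at 0, 1 and 6 h. The ratio was 1.84 at 1 h over 0 h (1.45 to 2.34) and 1.5 at 6 h over 0 h (1.18 to 1.90). With the exonic factors these were 1.20 (0.95 to 1.53) and 1.26 (0.99 to 1.61), so both intervals then included 1. Intron 3 held 106, 148 and 145 of these reads. Whether they came from unspliced RNA or from hosted small nucleolar RNAs was not tested. The deposited Snhg11 model also has 5864 bp of exon, against 8521 bp covered by the GENCODE transcripts. The exonic-to-intronic odds, which need no scaling, were 0.72 times those at 0 h after 1 h (0.56 to 0.92) and 0.70 times after 6 h (0.55 to 0.90). At 1 h only 5.61% of genes had a smaller factor, and the direction was opposite to that of the median gene.

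**Figure D5:**
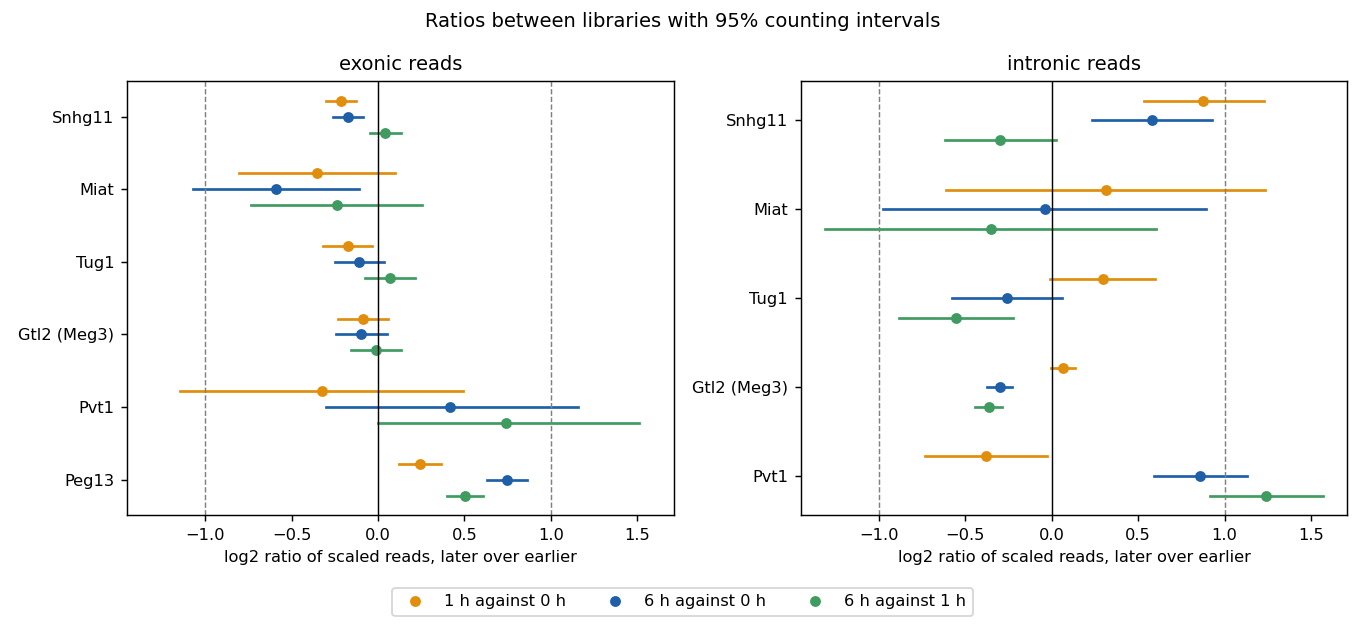
Log2 ratios of scaled exonic (left) and intronic (right) reads, later over earlier library, for each RNA; points are ratios between 2 libraries, lines are 95% counting intervals and dashed lines mark 2-fold. All exonic points lie between the dashed lines, with Peg13 at 0.75 for 6 h against 0 h, and in the introns Pvt1 at 6 h against 1 h lies beyond 2-fold at 1.24.

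On a scale that divides exonic RPM by the exon length in kb (RPKM), the RNAs spanned a wide range of levels. Snhg11 stood at 167, 144 and 148 RPKM at 0, 1 and 6 h and Meg3 at 161, 152 and 151, so their order differed between libraries. Peg13 had rank 3 at 0 and 1 h with 90.9 and 107 RPKM, and rank 1 at 6 h with 152, where it lay within counting error of Snhg11 and Meg3. Tug1 had rank 4 with 53.6, 47.5 and 49.8 RPKM, Miat rank 5 with 42.4, 33.2 and 28.2, and Pvt1 last with 4.21, 3.37 and 5.63. In the authors' coverage signal, which corrects for mappable bases, Meg3 was first in every library with 33.1, 36.3 and 34.1, followed by Snhg11 and Peg13.

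Antisense transcription over the exons of the 6 RNAs was at or near 0, with 1, 0 and 1 antisense exonic reads in all at 0, 1 and 6 h. For Peg13 the share was 0.0585% at 6 h (Clopper-Pearson 95% interval 0.00148% to 0.326%), and for Meg3 the count of 0 at 6 h allows a share of up to 0.399%, taken as 3 reads of its exonic total and so a different kind of bound. Across all genes, antisense reads made up 1.29% to 1.55% of exonic reads. Within introns, Pvt1 had 14, 1 and 7 antisense reads at 0, 1 and 6 h and the other RNAs together 1, 1 and 4. These Pvt1 reads were 6.83%, 0.917% and 2.22% of its intronic reads on both strands, below the 11.8% to 13.3% of all genes.

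The flanking genes of Snhg11, Miat and Tug1 did not pass the size rule where they could be compared. Next to Snhg11, Snhg17, another small nucleolar RNA host gene listed as 9430008C03Rik, had 116, 118 and 89 exonic reads at 0, 1 and 6 h, and Ralgapb had 652, 713 and 583. Next to Tug1, Morc2a had 213, 233 and 157, a ratio of 0.70 at 6 h over 0 h (0.56 to 0.86). Mn1, beside Miat, had 450, 433 and 427. Smtn (2 to 5 reads) and Cryba4 (0 reads) were too scarce to compare, as were the other gene models beside or within Pvt1 and beside Peg13, all at 0 reads.

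Other long noncoding RNAs, a list of 40 of which 21 were matched in the files, were mostly within 2-fold as well. By exonic reads, none of the 8 compared at 1 h against 0 h passed the size rule in either direction. At 6 h against 0 h, 1 of 10 did, Snhg12 (listed as LOC100039864), with 21, 17 and 7 exonic reads at 0, 1 and 6 h and a ratio of 0.32 (0.11 to 0.77), where 5.42% of all genes were lower. Nearly all reads of Snhg12 were intronic, with 2783, 3532 and 3159 at 0, 1 and 6 h and a ratio of 1.27 at 6 h over 0 h (1.21 to 1.34), the opposite direction. Whether intronic reads of small nucleolar RNA host genes came from unspliced RNA or from the hosted RNAs was not tested. At 6 h against 1 h none of 8 passed by exonic reads. The median exonic log2 ratios of the list were -0.01, 0.12 and 0.18 in these 3 comparisons. Xist, within 2-fold, had 3191, 1983 and 2119 exonic reads at 0, 1 and 6 h. Its ratio was 0.55 at 1 h over 0 h (0.52 to 0.59) and 0.63 at 6 h over 0 h (0.59 to 0.66). What lay behind this difference from the 0 h library was not tested. By intronic reads, 3 of 12 compared were higher at 1 h against 0 h and none lower, where 7.48% of all genes were higher, and none passed at 6 h against 0 h or 6 h against 1 h. The 3 were Dlx1as, antisense to the interneuron factor gene Dlx1, with 117, 252 and 157 intronic reads, Snhg3 with 265, 458 and 408, and Neat1 (listed as 2310043N10Rik), the RNA of nuclear paraspeckles, with 15, 28 and 23. The count was 0 with the exonic factors and 1 with uniquely mapped reads.

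By exonic reads, imprinted protein-coding genes, a list of 48 of which 47 were matched, held more genes that were higher at 6 h. At 1 h against 0 h, 1 of 30 compared was past 2-fold, Magel2, a Prader-Willi region gene, with 81, 197 and 128 exonic reads at 0, 1 and 6 h and a ratio of 2.17 (1.67 to 2.85), where 1.58% of all genes were higher and 1.43% lower. At 6 h against 0 h, 6 of 31 were higher and 0 were lower, against 4.92% and 5.42% of all genes. The median log2 ratio was 0.40 in the list and 0.00 over all genes. These counts depended in part on the read minimum, which was the same for all genes. Peg12, with 2, 7 and 32 exonic reads, reached it only in the 6 h library and was counted as higher. Dio3, with 14, 12 and 4, did not reach it and was not compared. With a minimum of 10 reads, 6 were higher and 1 was lower at 6 h against 0 h. At 6 h against 1 h, 6 of 31 were higher and 0 lower, against 4.17% and 4.63% of all genes. Besides Kcnk9, the genes higher in exons at 6 h than at 0 h were Peg10, Mest, Plagl1, Peg12 and Impact. On the intronic scale, Kcnk9 and all of these but Peg12, with 0 intronic reads, were past 2-fold higher already at 1 h over 0 h. The ratios were 13.2 for Peg10 (6 and 58 reads), 4.34 for Mest, 3.36 for Kcnk9, 3.01 for Plagl1 and 2.31 for Impact. There, 7.48% of all genes were higher. At 6 h over 1 h, intronic Peg10 and Mest were past 2-fold lower, at 0.17 and 0.30. The introns of the whole list were not counted.

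Peg10, a retrotransposon-derived gene, had 194, 320 and 680 exonic reads at 0, 1 and 6 h with a ratio of 3.31 at 6 h over 0 h (2.82 to 3.91). Mest, which encodes a hydrolase-like protein, had 596, 764 and 1457 reads with a ratio of 2.31 at 6 h over 0 h (2.10 to 2.55). Plagl1, a zinc finger transcription factor gene, had 33, 41 and 103 reads at the 3 times, a ratio of 2.95 (1.98 to 4.51). By exonic reads, these 3 paternally expressed genes were higher at 6 h than at 1 h also, each past the size rule. Mest passed only just with 2.02, against 1.89 with total exonic reads and 1.90 with uniquely mapped reads. Impact, an inhibitor of the kinase Gcn2, had 325, 561 and 817 reads, a ratio of 2.38 at 6 h over 0 h (2.09 to 2.71), and Peg12 had 2, 7 and 32 reads, a ratio of 15.1 with the wide interval of 3.86 to 130. Zim1, a zinc finger gene of the Peg3 cluster, had 39, 36 and 81 reads and passed the rule at 6 h against 1 h with 2.39-fold (1.59 to 3.64). Beside these, Peg13 at 1.68 at 6 h over 0 h was above the list median and Meg3 at 0.93 was below it.

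The genes nearest in pattern were taken from 5747 genes with at least 100 exonic reads in 1 library, by the Euclidean distance of the log2 ratios at 1 h and 6 h against 0 h over the 3 libraries. Nearest to Peg13 were Rnf11 (374, 499 and 668 reads at 0, 1 and 6 h), Nkiras1 (83, 110 and 146) and Cdc42se2 (539, 706 and 951), and 51 genes lay within a distance of 0.1. Nearest to Meg3 were Ap2a1, Atrx and AA474408, with 217 genes within that distance. Tug1 was nearest to Purg, Zmym2 and Mex3b (listed as Rkhd3), and Snhg11 to Cntn3, Mta1 and Fat4, with 176 and 151 genes within that distance. The near-flat profiles of Meg3, Tug1 and Snhg11 were thus shared by more genes than the profile of Peg13.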

How the data were processed

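Per the labels' protocols, total RNA was depleted of ribosomal RNA, fragmented, ligated directionally, amplified by PCR and sequenced on an ABi SOLiD instrument. Per the counting logs the authors deposited, 35 bp reads mapping uniquely with at most 3 mismatches to mm9 (NCBI 37), named in the submitters' processing notes too, or to RefSeq splice junctions were kept, repeated reads included; the aligner's name is not given in the sources used. The deposited counts are raw whole reads per gene, strand and feature; the lists of reads per exon, intron and junction are deposited as other strings of whole numbers. The authors' coverage signal is scaled to 10000000 uniquely mapped reads and corrected for mappability. Unique mapping undercounts genes with near-identical copies, and genes overlapping on 1 strand share reads.

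Exonic and intronic counts were scaled separately with TMM factors (edgeR 4.0.16, R 4.3.3), because the exonic share of mapped reads differed between libraries. Ratios had exact Clopper-Pearson 95% intervals of the split of reads (scipy 1.17.1, numpy 2.4.6, pandas 2.3.3, Python 3.11.15; figures with matplotlib 3.10.9). A ratio was called at 2-fold when its interval excluded 1 and 1 library had at least 20 reads. Odds ratios were conditional estimates with exact intervals. The rule was tested on simulated Poisson counts, which held no repeated reads or replicate variation and so cannot measure its error in these data. DESeq2 1.42.0 size factors, other totals, the authors' coverage, other read minimums and 1.5-fold were alternatives. With 1 library per time there was no test, replicate error or leave-one-out. Distances in the pattern search used a pseudocount of 0.5 reads.

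Named genes were the 6 RNAs, overlapping and flanking gene models, the 3 nearest patterns, and genes of the long noncoding and imprinted lists past the size rule. Mirg, Dio3, Xist, Neat1, Snhg3, Dlx1as and the markers given values were named after the values were seen. Marker lists covered interneurons, excitatory neurons, microglia, astrocytes and radial glia, dividing cells and the oligodendrocyte lineage. Members and lists were chosen with earlier results of these data known. Sequences came from RefSeq tables on GRCm38.p6, which held promoters for 4 of the 6 RNAs, and no coordinates were converted between builds.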

Additional observations from a re-analysis of the deposited data

How the results depend on the processing

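No paired analysis was possible because each time has 1 library, and leaving out a library would leave no value for its time. The count of the 6 RNAs past the rule in exons stayed at 0 under every alternative but the 1.5-fold limit, where 1 was higher and 1 lower at 6 h against 0 h. The intronic counts did not change with the exonic factors, uniquely mapped reads or 10 reads, but at 1.5-fold 1 RNA was higher in each comparison. The ratio of Snhg11 at 1 h over 0 h turned to 1.02 with total uniquely mapped reads and 1.02 with the authors' coverage, and that of Tug1 to 1.04 with each; these 2 scales put the median gene at 0.25 and 0.24 on the log2 scale in that comparison. Scaling intronic reads by the exonic factors moved the median gene to -0.67 at 1 h over 0 h and 0.41 at 6 h over 1 h, and put Pvt1 at 0.50 and 3.03. With it, 8.70% of all 2-fold intronic calls at 1 h against 0 h were higher, against 54.7%, and with uniquely mapped reads 19%. With uniquely mapped reads 85.1% of exonic calls at 1 h against 0 h were higher (296 genes, against 159) and 64.5% at 6 h against 0 h, against 52.5% and 47.6%. With total exonic reads, 35.6% were higher at 6 h against 0 h.

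Among other long noncoding RNAs, the number higher at 1 h against 0 h was 1 with no read minimum, and the number lower was 1 at 1.5-fold. At 6 h against 0 h the number higher was 2 with uniquely mapped reads or the authors' coverage and 1 with 10 reads, no minimum or 1.5-fold, and 3 were lower at 1.5-fold, as was 1 at 6 h against 1 h. Their intronic count, added after the values were seen, was 0 higher at 1 h against 0 h with the exonic factors and 1 with uniquely mapped reads, and 1 was lower at 6 h against 0 h with either. Imprinted genes higher at 1.5-fold numbered 2, 14 and 10 at 1 h against 0 h, 6 h against 0 h and 6 h against 1 h, and 1 was lower at 6 h against 0 h with 10 reads, no minimum or 1.5-fold. At 6 h against 1 h, 5 were higher with total exonic reads, uniquely mapped reads or the authors' coverage, against 6. By the authors' coverage, Meg3 ranked 1 and Snhg11 2 at 0 and 6 h, and Peg13 3 at 6 h. Antisense ratios on another scale were not run, since no RNA had 20 antisense exonic reads. Depth limits Pvt1 and Miat most, whose exonic reads number under 100 in every library.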
